A study of Arabidopsis thaliana with 12 samples.

Results

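Class III peroxidases are secreted, heme-containing plant enzymes encoded by a large gene family. The account below covers 59 Arabidopsis thaliana loci of this family, taken by locus code from a fixed list, of 37138 loci in the deposited tables. RNA-seq was done on 0.2 cm root tips of the scl5 scl21 pat1 triple mutant and of its wild type Col-0. The mutant carries lesions in genes of PAT1-type GRAS regulators, and the labels do not name the alleles. The 4 groups were triple mutant after bleomycin, triple mutant on control medium, Col-0 after bleomycin and Col-0 on control medium. Bleomycin, a drug that breaks DNA strands, was given at 0.5 µg/ml for 24 h, and all groups grew as about 100 seeds per sample on nylon mesh over half-strength MS agar until the mesh was moved, 7 days after sowing, to bleomycin or control medium. Each group held 3 biological replicates, called libraries 1 to 3, with 36.3 to 40.9 M reads per library. The title of the series links these regulators with regeneration after wounding. The comparisons asked how peroxidase transcripts differ after bleomycin in each genotype, between the genotypes, and whether the response depends on genotype.

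These enzymes use hydrogen peroxide to oxidise phenolic compounds and can also produce reactive oxygen species. In the root they couple lignin monomers in the Casparian strip and in xylem walls, cross-link extensins in root hair walls, and take part in the apoplastic oxidative burst. Hydrogen peroxide for these reactions comes largely from superoxide made by NADPH oxidases of the plasma membrane. The transcription factor UPB1 represses several peroxidase genes at the border between the meristem and the elongation zone of the root.

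The targeted genes followed the labels. SCL21 was listed at 0 TPM in all 6 triple mutant libraries, against 5.84 to 8.94 TPM in Col-0. SCL5 reached at most 0.0243 TPM in the triple mutant, against 18.8 to 26.2 TPM in Col-0. PAT1 retained 4.83 to 9.14 TPM in the triple mutant, against 15.9 to 26.6 TPM in Col-0. TPM is an abundance corrected for transcript length and scaled to a fixed total per library, here summed over the transcripts of a locus. Summed markers of the root tip's cell types were detected in every library, with 16.6 to 29.9 TPM for 3 stem cell niche genes and 51.4 to 81.3 TPM for 4 root cap genes. Markers of photosynthetic tissue summed to 9.16 to 25.7 TPM. The third triple mutant control library stood apart from the other 11 on the first pair of principal components of all genes.

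Promoter sequences of 3 root hair peroxidases are shown because they match a loose form of the root hair element. That element is known from Arabidopsis to be bound by root hair bHLH factors such as RSL4. The loose form keeps only its TG and CACG and leaves every base between them free, so a match need not be the element. Each sequence is the 250 bases before the annotated gene start on the gene's own strand, 5′ to 3′, from the RefSeq assembly TAIR10.1. The capitals mark the match to the loose form, searched as TGNNNNCACG on both strands. They read as its reverse complement where the match lies on the opposite strand. The build used by the authors is not given in the sources used here. Of the 69 member transcripts in the files, 68 had the same length as the TAIR10.1 model of the same name.
AT4G26010 (chr4:13200343-13200592, plus strand): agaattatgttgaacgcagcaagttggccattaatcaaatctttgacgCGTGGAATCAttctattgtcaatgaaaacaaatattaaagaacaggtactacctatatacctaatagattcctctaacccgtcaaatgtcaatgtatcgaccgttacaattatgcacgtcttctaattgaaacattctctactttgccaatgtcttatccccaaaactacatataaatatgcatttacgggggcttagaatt
RHS18 (AT5G22410, chr5:7426060-7426309, plus strand): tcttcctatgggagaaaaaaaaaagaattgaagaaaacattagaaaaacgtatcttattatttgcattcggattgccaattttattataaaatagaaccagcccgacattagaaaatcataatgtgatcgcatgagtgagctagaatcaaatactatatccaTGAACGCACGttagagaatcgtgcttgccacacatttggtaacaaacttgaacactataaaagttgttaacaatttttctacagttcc
RHS19 (AT5G67400, chr5:26894528-26894777, plus strand): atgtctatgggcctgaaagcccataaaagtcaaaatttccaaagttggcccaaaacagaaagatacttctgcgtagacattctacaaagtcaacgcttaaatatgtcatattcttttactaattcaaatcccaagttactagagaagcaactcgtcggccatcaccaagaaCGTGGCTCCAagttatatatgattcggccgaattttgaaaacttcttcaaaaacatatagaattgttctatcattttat

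The match began 202 bases before the start in AT4G26010, 88 bases before it in RHS18 and 79 bases before it in RHS19. The loose form was searched in windows of 250 bases before to 50 bases after the start. It was found in 3 of the 6 root hair peroxidases, in 5 of all 59 members (8.5%) and in 1359 of 27442 promoters (5.0%). The RHS genes were first named in a screen that used the root hair element, so their matches are no independent observation. A spacer longer by a base, TGNNNNNCACG, was found in 7 members (11.9%) and in 6.3% of all promoters. The motif of the DNA damage regulator SOG1, CTTNNNNNNNAAG, was found in 6 members (10.2%) and in 11.8% of all promoters. The W-box core TTGAC, bound by WRKY factors, was present in 30 members (50.8%) and in 50.1% of all promoters. All were searched on both strands, and a match describes letters in a window, not binding.

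The 59 loci spanned more than 3 orders of magnitude in level. Averaged over all 12 libraries, 15 members reached 100 TPM, 19 lay between 10 and 100 TPM, 9 between 1 and 10 TPM, and 16 below 1 TPM. The 3 highest members, AT4G30170, AT3G01190 and AT5G17820, held 33.3% to 42.5% of the summed peroxidase TPM of a library, and the 10 highest held 72.4% to 81.2%. AT3G03670 and AT5G58400 had no reads in any library. The filter on low counts removed these and PRX52, a stem lignin peroxidase, AT5G19880, AT5G58390 and AT5G19890, none with more than 12 reads in a library. This left 53 members for testing.

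**Figure D1:**
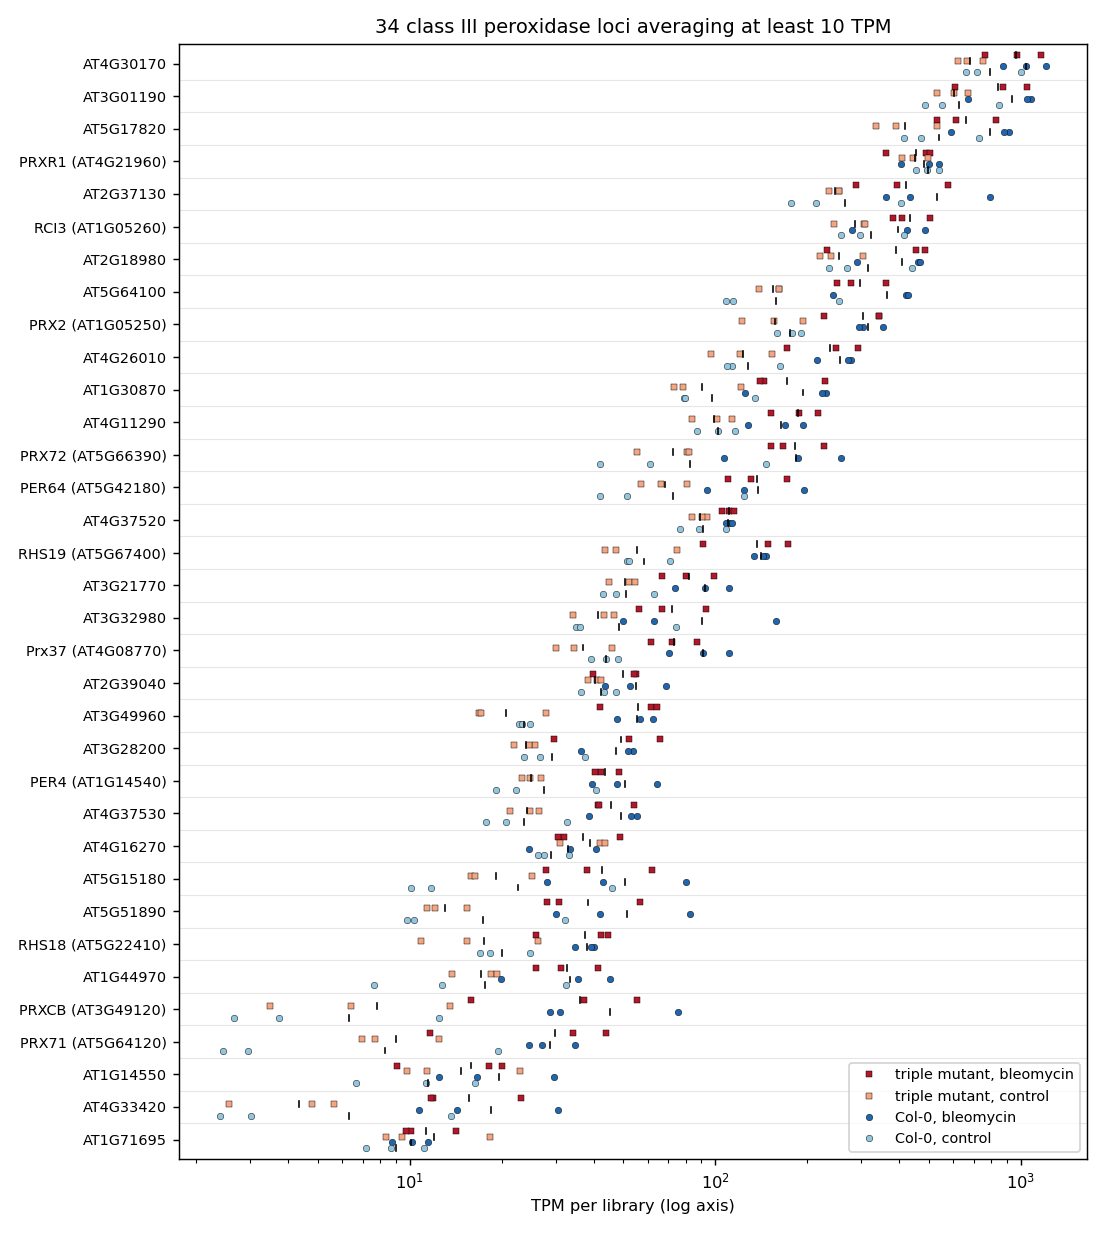
TPM in each library (log axis) of the 34 peroxidase loci averaging at least 10 TPM, ordered by mean level, with triple mutant libraries as squares and Col-0 libraries as circles; the short black lines are means of 3. In most rows the bleomycin mean of a genotype lies to the right of its control mean, and PRXR1 is a row where it does not.

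After bleomycin peroxidase transcripts were more abundant in both genotypes. The summed level of the 59 loci was 8096, 5724 and 6454 TPM in triple mutant libraries after bleomycin, against 4749, 3921 and 4218 TPM in triple mutant controls. In Col-0 it was 8770, 5708 and 7686 TPM after bleomycin, against 6343, 4106 and 3968 TPM in controls. The groups did not overlap in the triple mutant and overlapped in Col-0, where control library 1 was above bleomycin library 2. The ratio of the group means was 1.57 in the triple mutant and 1.54 in Col-0. In bulk tissue, more cells of a type and more RNA per cell cannot be told apart.

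Of the 53 members tested, 11 rose and 0 fell in each genotype (edgeR quasi-likelihood test, Benjamini-Hochberg adjusted p under 0.05). At an unadjusted p under 0.05, 28 members were higher and 0 lower in the triple mutant and 28 higher and 1 lower in Col-0, where 13.1% and 12% of all genes were higher and lower in the triple mutant and 13.4% and 10.9% in Col-0. DESeq2 called 20 members higher in the triple mutant and 19 in Col-0, with 0 lower, where it called 13.3% and 12.6% of all genes in either direction. The 11 are 20.8% of those tested, against a background of 4.20% of all 21561 genes higher in the triple mutant and 4.29% higher in Col-0. The list was chosen with earlier results of these data known, so this contrast is a description and no independent test. The background of lower genes was 3.81% in the triple mutant and 2.46% in Col-0. The loci that passed in both genotypes numbered 8, or 72.7% of each list, and were AT3G21770, AT3G49960, AT4G11290, AT4G26010, AT4G37530, AT5G06730, Prx37 and RHS19. PRX2, AT3G28200 and PRXCA passed in the triple mutant alone, and AT5G64100, PER4 and PRXCB in Col-0 alone. Of these 6, 0 passed the edgeR test of the difference between the genotypes (interaction). That test called 0 of all 21561 genes, so the 0 among these 6 does not show equal responses. The fitted log2 fold change was above 0 for 47 of 53 members in each genotype, against 52.4% of all genes in the triple mutant and 51.1% in Col-0. Its median over the members was 0.86 in the triple mutant and 0.89 in Col-0, against 0.03 and 0.01 over all genes. The triple mutant median was also 0.86 with AT1G68850 and AT1G49570, which had 0 reads in its control libraries, set at their lower bound of 3 reads over that group. On the scale of library-size scaled counts (CPM), the bleomycin libraries were all above the control libraries for 24 members in the triple mutant (45.3%; background 15.4%) and for 22 in Col-0 (41.5%; background 15.3%). They were all below for AT5G40150 and AT2G24800 in Col-0 (background 14.7%) and for no member in the triple mutant (background 14.5%). AT2G24800 averaged 0.317 TPM and was picked out after its values were seen.

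The number of calls depended on single libraries. With all libraries 8.01% of all genes were called in either direction in the triple mutant and 6.75% in Col-0, and this share is given in brackets for each library left out. In the triple mutant 4 members passed without bleomycin library 1 (2.31% of all genes) or without control library 2 (2.78%), 5 without bleomycin library 2 (2.71%) or control library 3 (4.23%), and 19 without Col-0 control library 1 (8.39%). In Col-0 it was 23 without control library 1 (9.42%), 2 without control library 2 (1.61%) or 3 (1.97%), 4 without bleomycin library 1 (2.65%) and 7 without bleomycin library 2 (3.79%). Fits limited to the groups compared called 13 members in the triple mutant (6.01% of all genes) and 10 in Col-0 (3.99%). These held 6 of the 11 triple mutant calls and 8 of the 11 Col-0 calls. AT3G21770, AT4G26010, RHS19 and PRX2 did not pass there in the triple mutant (edgeR adjusted p up to 0.0852). PRXCA was removed by the filter on low counts in that triple mutant fit and could not be tested. AT4G11290, AT5G64100 and PER4 did not pass there in Col-0 (edgeR adjusted p up to 0.102). Prx37 and AT5G06730 passed in both genotypes under all 22 alternatives, and AT3G49960 and AT4G11290 did so in the triple mutant.

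**Figure D2:**
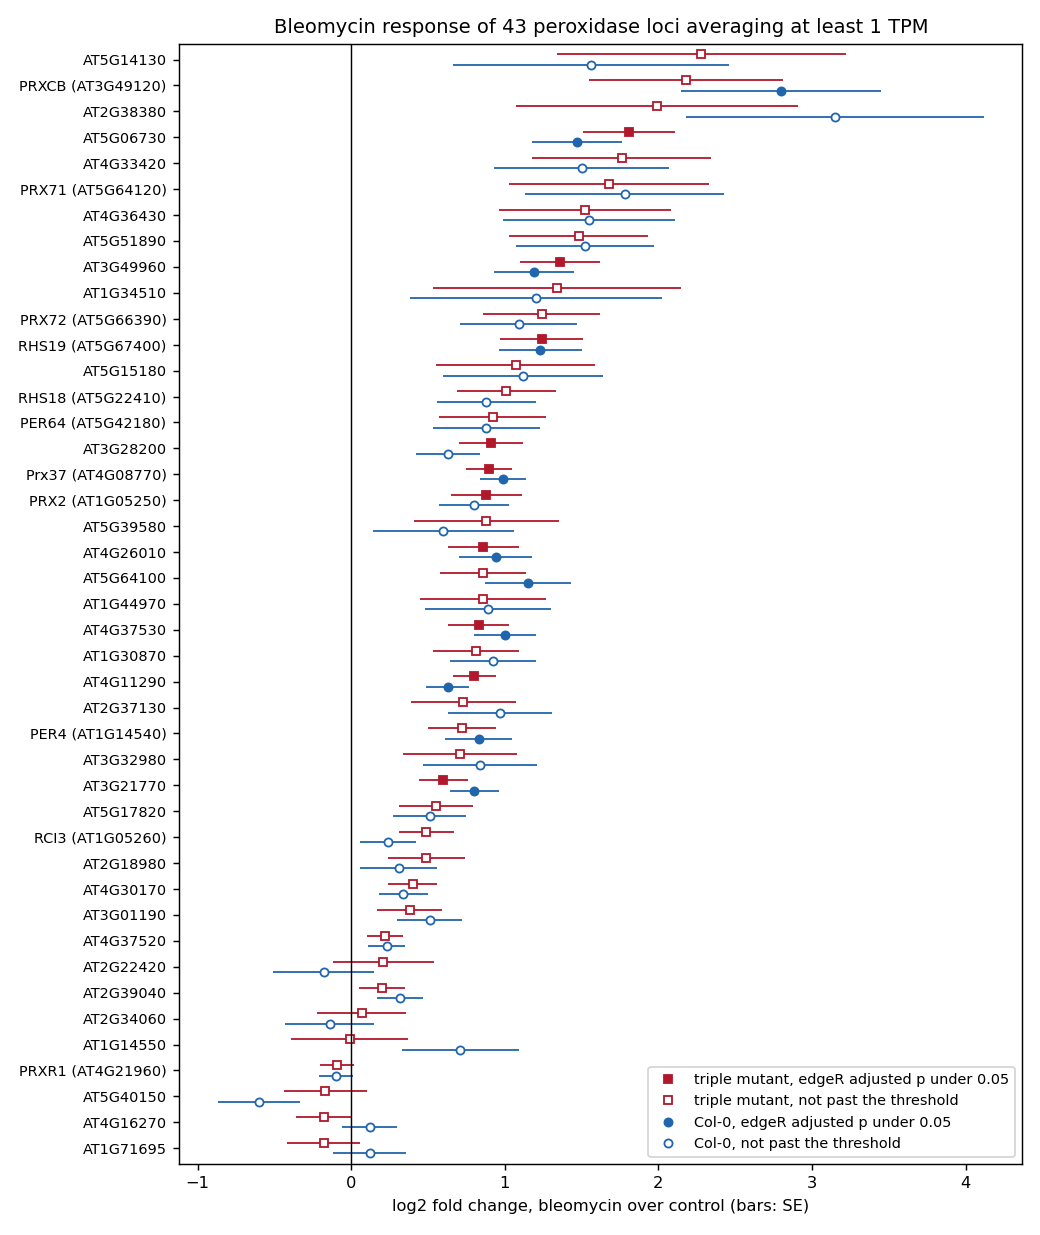
Fitted log2 fold change of bleomycin over control with its standard error for the 43 peroxidase loci averaging at least 1 TPM, with the triple mutant as red squares above Col-0 as blue circles; filled symbols passed the edgeR threshold. Most symbols lie right of 0, at similar places in both genotypes, and no filled symbol lies left of 0.

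Among the peroxidases of root hairs, AT4G26010 and RHS19 rose in both genotypes and AT5G64100 in Col-0. AT4G26010 and RHS19 cross-link extensins in growing root hair walls in Arabidopsis. RHS19 had 173, 149 and 90.8 TPM in triple mutant libraries after bleomycin, against 74.8, 47.4 and 43.6 TPM in triple mutant controls. In Col-0 it had 146, 143 and 134 TPM after bleomycin, against 71.3, 51.5 and 52.1 TPM in controls. The groups did not overlap in either genotype, and the spread was narrowest in Col-0 after bleomycin. The log2 fold change was 1.24 ± 0.27 (SE) in the triple mutant (edgeR adjusted p = 0.018) and 1.23 ± 0.27 in Col-0 (edgeR adjusted p = 0.021). The call was lost without library 1 or 2 of the bleomycin group or library 2 or 3 of the control group, in the triple mutant (edgeR adjusted p up to 0.0812) and in Col-0 (edgeR adjusted p up to 0.105).

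AT4G26010 had 294, 248 and 171 TPM in triple mutant libraries after bleomycin, against 153, 120 and 96.9 TPM in triple mutant controls. The Col-0 values were 277, 215 and 272 TPM after bleomycin, against 163, 113 and 109 TPM in controls. Here too all bleomycin libraries were above all controls of the same genotype in TPM. The fitted log2 fold change was 0.86 ± 0.23 in the triple mutant (edgeR adjusted p = 0.042) and 0.94 ± 0.24 in Col-0 (edgeR adjusted p = 0.034). It did not pass in the triple mutant without bleomycin library 1 or 2, control library 2 or 3, or library 2 or 3 of either Col-0 group (edgeR adjusted p up to 0.161). In Col-0 it did not pass without any 1 of the bleomycin libraries, control library 2 or 3, or triple mutant control library 2 (edgeR adjusted p up to 0.146).

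AT5G64100, a peroxidase of root hair growth at low temperature, had 363, 278 and 250 TPM in the triple mutant after bleomycin, against 161, 139 and 162 TPM in its controls. Col-0 libraries had 422, 243 and 428 TPM after bleomycin, against 253, 108 and 114 TPM in controls. The Col-0 groups met at control library 1 and bleomycin library 2, while the triple mutant groups lay apart. On the log2 scale the change was 0.86 ± 0.28 in the triple mutant (edgeR adjusted p = 0.076) and 1.15 ± 0.28 in Col-0 (edgeR adjusted p = 0.03). The Col-0 call was lost without bleomycin library 1 or 3 or control library 2 or 3 (edgeR adjusted p up to 0.143). RHS18, whose promoter is shown above, did not pass, with log2 fold changes of 1.01 ± 0.32 in the triple mutant and 0.88 ± 0.32 in Col-0. Its levels were 44.4, 42.1 and 25.9 TPM in the triple mutant after bleomycin, against 26.3, 15.4 and 10.9 TPM in controls. AT5G39580, which acts with AT5G64100 in the cold, did not pass either, at 12.7, 11.4 and 12.6 TPM in the triple mutant after bleomycin, against 4.06, 5.21 and 9.56 TPM in controls.

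PRX2 and AT1G05240 encode identical proteins (100% of residues) and lie in a cluster of neighbouring genes with RCI3. The likeness of their transcripts, by which Salmon splits reads, was not measured, so the split may be uncertain. Nearly all reads were given to PRX2, which had 344, 344 and 227 TPM in the triple mutant after bleomycin, against 194, 155 and 122 TPM in controls. In Col-0 the levels were 304, 353 and 295 TPM after bleomycin, against 191, 178 and 159 TPM in controls. The pair summed had a log2 fold change of 0.88 ± 0.23 in the triple mutant (edgeR adjusted p = 0.037) and 0.80 ± 0.23 in Col-0 (edgeR adjusted p = 0.056). PRX2 alone passed in the triple mutant (edgeR adjusted p = 0.036), but not without its bleomycin library 1 or 2, its control library 2 or 3 or Col-0 control library 2 (edgeR adjusted p up to 0.137). Of the pair, AT1G05240 is a peroxidase known for root hair growth, and it averaged 0.141 TPM here.

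AT3G49960 rose in both genotypes as well. It had 61.4, 64.2 and 41.9 TPM in triple mutant libraries after bleomycin, against 27.8, 16.8 and 17.1 TPM in triple mutant controls. In Col-0 it had 47.7, 62.4 and 56.8 TPM after bleomycin, against 22.7, 23.3 and 24.7 TPM in controls, where the controls lay close together. The log2 fold change was 1.36 ± 0.26 in the triple mutant (edgeR adjusted p = 0.0095) and 1.19 ± 0.26 in Col-0 (edgeR adjusted p = 0.019). The Col-0 call was lost without bleomycin library 2 or control library 2 or 3 (edgeR adjusted p up to 0.0828). Its protein is 81.2% identical to that of RHS19.

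**Figure D3:**
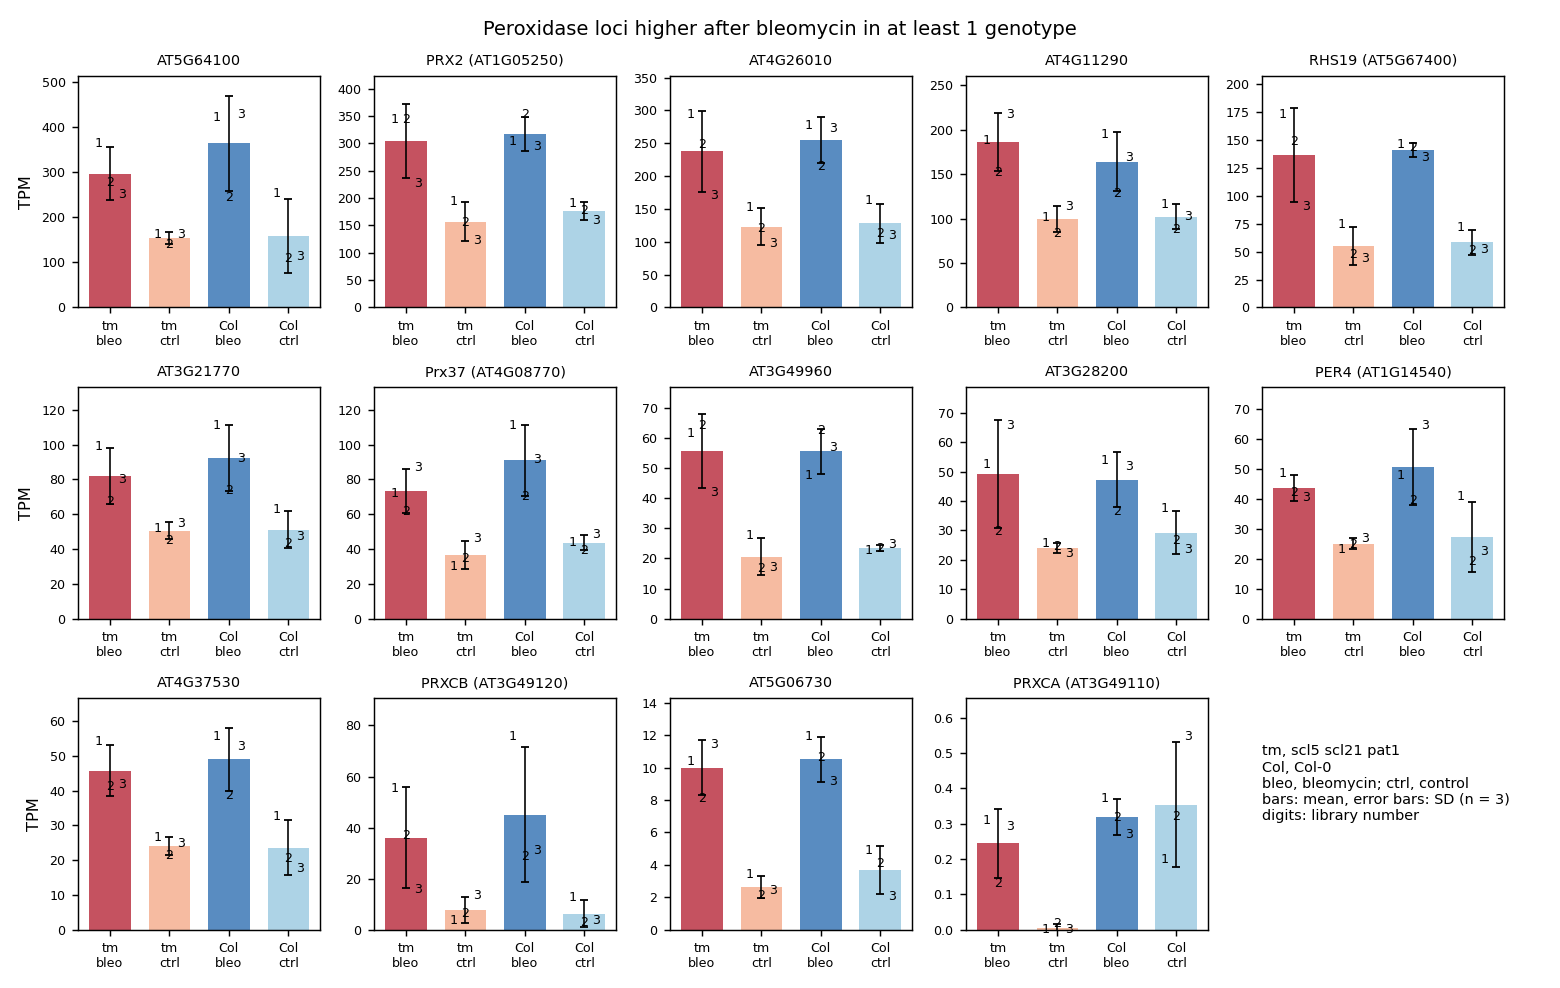
TPM of the 14 peroxidase loci that passed in at least 1 genotype, as group means (bars) with SD (n = 3) and each library's value as its number; axes start at 0. RHS19 and AT3G49960 separate bleomycin from control in both genotypes, and PRXCA is near 0 in the triple mutant controls.

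Of the 5 peroxidases that together lay down Casparian strip lignin in the endodermis, AT4G11290 rose in both genotypes and the other 4 did not pass (background of higher genes 4.20% in the triple mutant, 4.29% in Col-0). With the library number as a block, PRX72 and PER64 passed in both genotypes, AT1G44970 in Col-0 and RCI3 in the triple mutant. The block called 16.8% of all genes in the triple mutant and 15.9% in Col-0. PRX72 and PER64 also passed in the fit limited to the triple mutant groups (6.01% of all genes). AT4G11290, also a target of UPB1, had 188, 152 and 217 TPM in triple mutant libraries after bleomycin, against 101, 83.6 and 113 TPM in triple mutant controls. The Col-0 values were 194, 128 and 169 TPM after bleomycin, against 116, 87.1 and 102 TPM in controls. No bleomycin library overlapped a control of its genotype. The fitted log2 fold change was 0.80 ± 0.14 in the triple mutant (edgeR adjusted p = 0.007) and 0.63 ± 0.14 in Col-0 (edgeR adjusted p = 0.023). In Col-0 it was not called without bleomycin library 1 or control library 2 or 3 (edgeR adjusted p up to 0.126).

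PRX72 had a larger fitted difference and a wider spread. It had 227, 166 and 152 TPM in triple mutant libraries after bleomycin, against 80.7, 55.2 and 81.7 TPM in triple mutant controls. Col-0 libraries had 257, 107 and 186 TPM after bleomycin, against 146, 41.9 and 61.2 TPM in controls, where control library 1 was above bleomycin library 2. On the log2 scale the change was 1.24 ± 0.38 in the triple mutant (edgeR adjusted p = 0.063) and 1.09 ± 0.38 in Col-0 (edgeR adjusted p = 0.098). PER64, which the Casparian strip proteins hold at the strip, had 171, 131 and 110 TPM in the triple mutant after bleomycin, against 81.0, 57.2 and 66.4 TPM in controls. Its log2 fold change was 0.92 ± 0.35 in the triple mutant and 0.88 ± 0.35 in Col-0. AT1G44970 had log2 fold changes of 0.86 ± 0.41 and 0.89 ± 0.41 in the triple mutant and in Col-0. RCI3, the most abundant of the 5, had 408, 381 and 506 TPM in the triple mutant after bleomycin, against 307, 244 and 310 TPM in controls. This gave a log2 fold change of 0.49 ± 0.18 in the triple mutant (edgeR adjusted p = 0.11) and 0.24 ± 0.18 in Col-0 (edgeR adjusted p = 0.45).

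The 9 endodermis markers (5 CASP genes, ESB1, MYB36, SCR and SGN3) summed to 971, 669 and 632 TPM in the triple mutant after bleomycin, against 533, 336 and 395 TPM in controls. In Col-0 they summed to 1042, 470 and 778 TPM after bleomycin, against 758, 273 and 339 TPM in controls. With edgeR 0 of the 9 markers passed in either genotype. At an edgeR unadjusted p under 0.05, 3 were higher in each, where 13.1% of all genes were in the triple mutant and 13.4% in Col-0. DESeq2 called 1 in the triple mutant (13.3% of all genes) and 0 in Col-0 (12.6%). In each genotype 7 of 9 fold changes were above 0, and the median log2 fold change was 0.67 in the triple mutant and 0.58 in Col-0. The 9 epidermis and root hair markers summed to 674, 556 and 479 TPM in the triple mutant after bleomycin, against 485, 358 and 333 TPM in controls. In Col-0 they summed to 629, 539 and 630 TPM after bleomycin, against 501, 368 and 359 TPM in controls. Of these 9 only LRX1, a leucine-rich repeat extensin of root hairs, passed, in both genotypes (background 4.20% in the triple mutant, 4.29% in Col-0). It was not called without library 1 or 2 of the bleomycin group or library 2 or 3 of the control group of the same genotype, nor without some libraries of the other (edgeR adjusted p up to 0.136 in the triple mutant and 0.201 in Col-0). The part of these markers' cell types in the peroxidase differences was not tested.

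**Figure D4:**
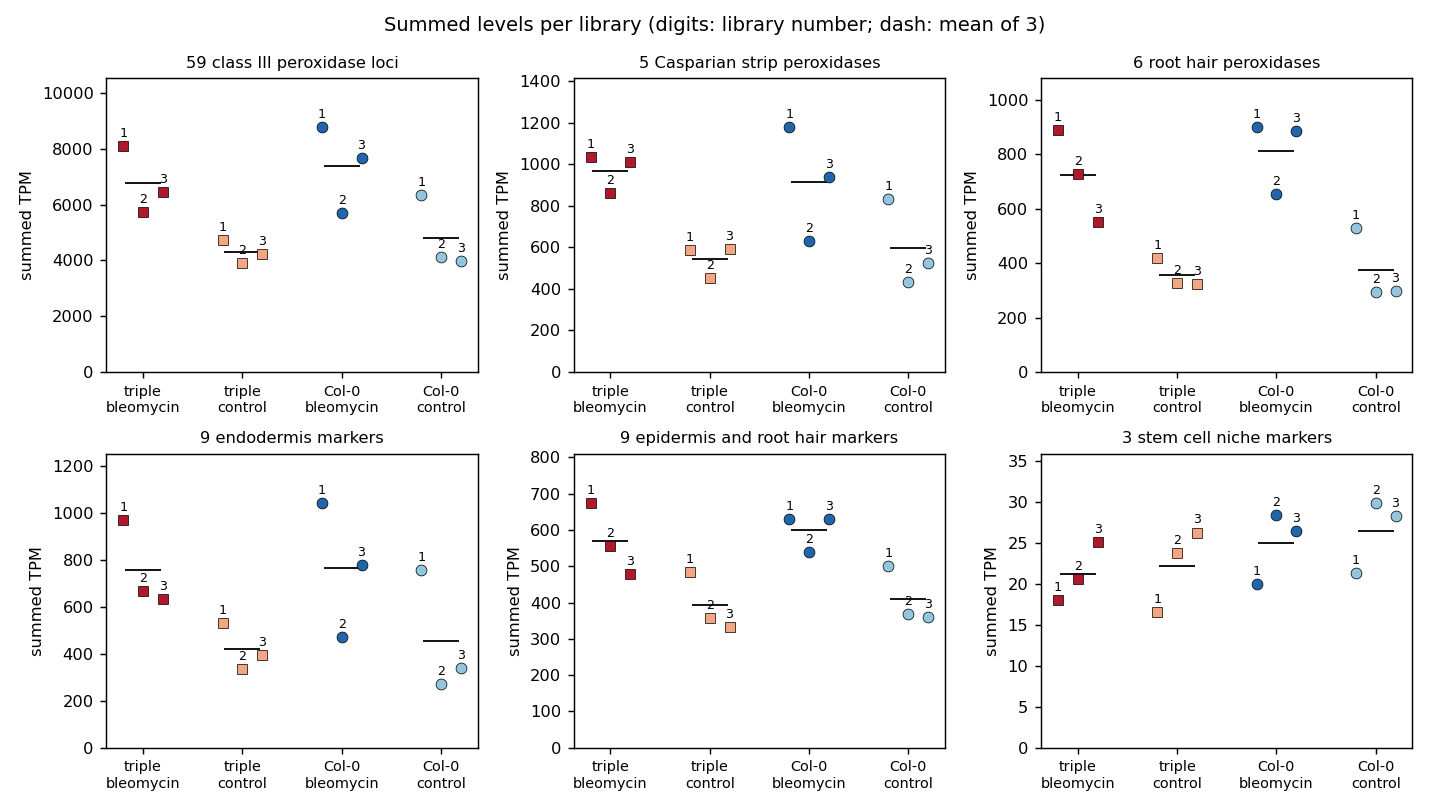
Summed TPM per library of all 59 peroxidase loci, the 5 Casparian strip and the 6 root hair peroxidases, and of markers of endodermis, epidermis with root hairs, and stem cell niche; digits are library numbers and dashes means of 3. Library 1 is the highest of each group for all 59 loci and for the endodermis markers, and the lowest of each group for the stem cell niche markers.

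Library number 1 of each group was high for many members. It was the highest of its group for 64.2% of the tested members in triple mutant bleomycin (31.2% of all genes), 64.2% in triple mutant control (33.1%), 56.6% in Col-0 bleomycin (34.6%) and 75.5% in Col-0 control (38.2%). With the library number as a block, 28 members passed in each genotype, where 16.8% of all genes passed in the triple mutant and 15.9% in Col-0. These added 17 loci in each genotype to those called without the block. Elsewhere, a locus said not to pass did not pass in the edgeR fit without the block, unless another fit is named. Among them in both genotypes were PRX72, PER64, RHS18, AT5G51890, AT4G33420 and the abundant AT4G30170, AT3G01190, AT5G17820 and AT2G37130 (edgeR adjusted p with the block up to 0.042).

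Peroxidases linked with xylem and lignin gave 0 edgeR calls among 6 tested in either genotype (background of higher genes 4.20% in the triple mutant, 4.29% in Col-0). Their median log2 fold change was 1.58 in the triple mutant and 1.30 in Col-0. At an unadjusted p under 0.05 there were 4 in each, all higher, where 13.1% of all genes were higher in the triple mutant and 13.4% in Col-0. DESeq2 called 1 in each, AT5G51890 (13.3% of all genes in the triple mutant, 12.6% in Col-0), and limma voom called it in Col-0 (7.06%). With the library number as a block, AT5G51890, AT4G33420 and PRX72 of these 6 passed in both genotypes, and PRX71 in Col-0. The block called 16.8% of all genes in the triple mutant and 15.9% in Col-0. AT5G51890, a peroxidase of differentiating vessels, had 56.5, 30.7 and 28.1 TPM in the triple mutant after bleomycin, against 15.4, 11.4 and 12.1 TPM in controls. In Col-0 the levels were 82.5, 30.2 and 41.8 TPM after bleomycin, against 32.1, 10.3 and 9.79 TPM in controls. The fitted change on the log2 scale was 1.48 ± 0.45 in the triple mutant (edgeR adjusted p = 0.062) and 1.52 ± 0.45 in Col-0 (edgeR adjusted p = 0.059). AT4G33420, also of vessels, had 23.1, 11.9 and 11.7 TPM in the triple mutant after bleomycin, against 4.80, 2.56 and 5.63 TPM in controls, with an edgeR adjusted p of 0.082. Both were highest in library 1 of Col-0 after bleomycin. AT2G22420 and PRX25, which act in stem lignin, stayed low, averaging 4.13 and 0.205 TPM. The 8 xylem markers summed to 166, 86.1 and 113 TPM in the triple mutant after bleomycin, against 73.6, 62.4 and 85.7 TPM in controls. In Col-0 they summed to 219, 95.1 and 140 TPM after bleomycin, against 135, 62.4 and 70.1 TPM in controls. Of these 8 markers 0 rose in either genotype (background 4.20% in the triple mutant, 4.29% in Col-0). ACL5, a thermospermine synthase of young xylem, fell in both (background 3.81% in the triple mutant, 2.46% in Col-0). Its log2 fold change was -1.25 ± 0.17 in the triple mutant (edgeR adjusted p = 0.0015) and -1.2 ± 0.17 in Col-0 (edgeR adjusted p = 0.0017). The part of xylem cells in the peroxidase values was not tested.

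Among peroxidases tied to the oxidative burst and defence, PRXCB and PER4 rose in Col-0. PRXCB and its close relative PRXCA produce much of the apoplastic burst of hydrogen peroxide in Arabidopsis. PRXCB had 55.3, 37.1 and 15.8 TPM in the triple mutant after bleomycin, against 3.48, 6.44 and 13.5 TPM in triple mutant controls. In Col-0 the values were 75.6, 28.8 and 31.1 TPM after bleomycin, against 12.5, 2.66 and 3.72 TPM in controls. The log2 fold change was 2.18 ± 0.63 in the triple mutant (edgeR adjusted p = 0.052), where bleomycin library 3 came close to control library 3, and 2.80 ± 0.65 in Col-0 (edgeR adjusted p = 0.025). The Col-0 call was lost without bleomycin library 1 or control library 2 or 3 (edgeR adjusted p up to 0.118), and the triple mutant passed without its bleomycin library 3, Col-0 bleomycin library 1 or Col-0 control library 1 (edgeR adjusted p down to 0.0276).

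PRXCA was counted at a few reads. It had 15, 8 and 14 reads in triple mutant libraries after bleomycin, against 0, 1 and 0 reads in triple mutant controls, a ratio per sequenced read of 35.5 with an exact 95% interval of 5.98 to 1440 that covers counting error only. In Col-0 it had 18, 17 and 12 reads after bleomycin, against 10, 16 and 29 reads in controls. It passed in the triple mutant (edgeR adjusted p = 0.035) and not in Col-0 (edgeR adjusted p = 0.92). The call was lost without any 1 of the 6 triple mutant libraries, without Col-0 bleomycin library 1 or 3 or without Col-0 control library 2 (edgeR adjusted p up to 0.117), and also with limma voom (adjusted p = 0.0729) and with no filter on low counts (adjusted p = 0.0592). The proteins of PRXCA and PRXCB are 92.7% identical, so reads may be split wrongly between them. Summed, the pair had a log2 fold change of 2.19 ± 0.61 in the triple mutant (edgeR adjusted p = 0.046) and 2.73 ± 0.63 in Col-0 (edgeR adjusted p = 0.024). Another relative, AT3G32980, whose protein is 89.0% identical to that of PRXCB, had log2 fold changes of 0.71 ± 0.37 in the triple mutant and 0.84 ± 0.37 in Col-0, not past the threshold.

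PER4 had 48.4, 42.2 and 40.3 TPM in the triple mutant after bleomycin, against 23.2, 24.8 and 26.9 TPM in triple mutant controls, with no overlap. In Col-0 the values were 47.7, 39.5 and 64.5 TPM after bleomycin, against 40.8, 19.2 and 22.3 TPM in controls, where control library 1 was above bleomycin library 2. The fitted log2 fold change was 0.72 ± 0.22 in the triple mutant (edgeR adjusted p = 0.064) and 0.83 ± 0.22 in Col-0 (edgeR adjusted p = 0.043). Its Col-0 call was lost without library 1 or 2 of either triple mutant group, without any 1 of the Col-0 bleomycin libraries, and without Col-0 control library 2 or 3 (edgeR adjusted p up to 0.183). Its neighbour AT1G14550 did not pass, with log2 fold changes of -0.01 ± 0.38 in the triple mutant and 0.71 ± 0.38 in Col-0. PRX71, which restrains growth upon cell wall damage, had 43.8, 34.1 and 11.6 TPM in the triple mutant after bleomycin, against 7.67, 6.99 and 12.5 TPM in controls. The Col-0 values were 34.8, 24.6 and 27.0 TPM after bleomycin, against 19.5, 2.96 and 2.45 TPM in controls. Its groups overlapped in the triple mutant through library 3, and neither comparison passed, with edgeR adjusted p of 0.13 in the triple mutant and 0.12 in Col-0. PA2 had 53, 75 and 32 reads in the triple mutant after bleomycin, against 9, 8 and 0 reads in controls, with an edgeR adjusted p of 0.059.

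Prx37 and AT5G06730 passed in both genotypes under every alternative tried. Prx37, whose overexpression is known to reduce growth in Arabidopsis, had 71.9, 61.4 and 86.9 TPM in the triple mutant after bleomycin, against 30.2, 34.5 and 45.8 TPM in controls. Col-0 libraries had 111, 70.4 and 91.3 TPM after bleomycin, against 43.9, 39.1 and 48.1 TPM in controls. Its log2 fold change was 0.90 ± 0.15 in the triple mutant (edgeR adjusted p = 0.0055) and 0.99 ± 0.15 in Col-0 (edgeR adjusted p = 0.0029). AT4G08780, outside the list and 92.8% identical in protein to Prx37, had at most 11 reads summed over a group.

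AT5G06730, the neighbour of PA2, had 10.4, 8.12 and 11.4 TPM in the triple mutant after bleomycin, against 3.39, 2.09 and 2.41 TPM in controls. In Col-0 the levels were 11.9, 10.6 and 9.12 TPM after bleomycin, against 4.90, 4.09 and 2.05 TPM in controls. This gave a log2 fold change of 1.81 ± 0.30 in the triple mutant (edgeR adjusted p = 0.0048) and 1.47 ± 0.29 in Col-0 (edgeR adjusted p = 0.013).

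AT4G37530 and AT3G21770 also rose in both genotypes. AT4G37530 had 54.1, 41.2 and 41.7 TPM in the triple mutant after bleomycin, against 26.5, 21.2 and 24.7 TPM in controls. In Col-0 it had 55.5, 38.6 and 52.8 TPM after bleomycin, against 32.6, 20.6 and 17.7 TPM in controls. On the log2 scale the change was 0.83 ± 0.20 in the triple mutant (edgeR adjusted p = 0.025) and 1.00 ± 0.20 in Col-0 (edgeR adjusted p = 0.013). Without bleomycin library 1 or 2 or control library 2 or 3 it did not pass in the triple mutant (edgeR adjusted p up to 0.108), nor without control library 2 or 3 in Col-0 (edgeR adjusted p up to 0.0783). Its neighbour AT4G37520, with 89.4% of residues identical, had log2 fold changes of 0.22 ± 0.12 in the triple mutant and 0.23 ± 0.12 in Col-0, not past the threshold.

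AT3G21770 had 98.7, 67.1 and 80.0 TPM in the triple mutant after bleomycin, against 52.0, 44.9 and 54.7 TPM in controls. The Col-0 values were 111, 73.5 and 92.3 TPM after bleomycin, against 63.0, 42.9 and 47.3 TPM in controls. The log2 fold change was 0.60 ± 0.16 in the triple mutant (edgeR adjusted p = 0.04) and 0.80 ± 0.16 in Col-0 (edgeR adjusted p = 0.014). In the triple mutant the call was lost without bleomycin library 1 or 2, any 1 of its control libraries, Col-0 bleomycin library 3 or Col-0 control library 2 or 3 (edgeR adjusted p up to 0.171). In Col-0 it was lost without bleomycin library 1 or control library 2 or 3 (edgeR adjusted p up to 0.086). AT3G28200 passed in the triple mutant, at 52.3, 29.6 and 65.7 TPM after bleomycin, against 25.6, 24.5 and 22 TPM in controls. The fitted change on the log2 scale was 0.91 ± 0.21 in the triple mutant (edgeR adjusted p = 0.021) and 0.63 ± 0.21 in Col-0 (edgeR adjusted p = 0.082). It was not called in the triple mutant without bleomycin library 1 or 3 or control library 2 or 3 (edgeR adjusted p up to 0.0798).

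None of the 7 most abundant members passed with edgeR without the replicate block, and their log2 fold changes lay between -0.10 and 0.97. With the block AT4G30170, AT3G01190, AT5G17820 and AT2G37130 passed in both genotypes, and RCI3 passed in the triple mutant. AT4G30170, the highest, had 1160, 761 and 972 TPM in the triple mutant after bleomycin, against 752, 623 and 668 TPM in controls. Its log2 fold change was 0.40 ± 0.16 in the triple mutant (edgeR adjusted p = 0.15) and 0.34 ± 0.16 in Col-0 (edgeR adjusted p = 0.23). AT3G01190 had log2 fold changes of 0.38 ± 0.21 in the triple mutant and 0.51 ± 0.21 in Col-0. AT5G17820, bound by UPB1, had log2 fold changes of 0.55 ± 0.24 in the triple mutant and 0.51 ± 0.24 in Col-0. PRXR1 had 489, 362 and 506 TPM in the triple mutant after bleomycin, against 408, 443 and 495 TPM in controls, and 499, 404 and 541 TPM in Col-0 after bleomycin, against 539, 453 and 493 TPM in controls. Its groups overlapped in both genotypes, with log2 fold changes of -0.09 ± 0.11 in the triple mutant and -0.10 ± 0.11 in Col-0. AT2G37130 had log2 fold changes of 0.73 ± 0.34 and 0.97 ± 0.34 in the triple mutant and in Col-0, and AT2G18980 of 0.49 ± 0.25 and 0.31 ± 0.25.

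A few members had a fitted change below 0 and none of them passed. AT5G40150 had 5.87, 4.98 and 7.11 TPM in Col-0 after bleomycin, against 7.30, 7.76 and 10.8 TPM in controls, with a log2 fold change of -0.60 ± 0.27 (edgeR adjusted p = 0.2). In the triple mutant the groups overlapped, with a log2 fold change of -0.17 ± 0.27. AT4G16270, bound by UPB1, had log2 fold changes of -0.18 ± 0.18 in the triple mutant and 0.12 ± 0.18 in Col-0. AT1G71695 had -0.18 ± 0.24 in the triple mutant and 0.12 ± 0.24 in Col-0 on the same scale. At the other end, AT2G38380 had the largest fitted change in Col-0 among members averaging at least 2 CPM, 3.15 ± 0.97, with 17.2, 3.52 and 2.50 TPM after bleomycin, against 1.23, 0.645 and 0.609 TPM in controls. Its edgeR adjusted p was 0.068, and AT5G14130 had 0.31.

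UPB1 itself had 49.4, 38.9 and 51.1 TPM in the triple mutant after bleomycin, against 61.9, 46.9 and 51.2 TPM in controls. Col-0 libraries had 63.1, 52.1 and 60.6 TPM after bleomycin, against 71.0, 51.4 and 52.3 TPM in controls. The fitted log2 fold change was -0.31 ± 0.14 in the triple mutant (edgeR adjusted p = 0.21) and -0.04 ± 0.14 in Col-0 (edgeR adjusted p = 0.9). Of the 3 peroxidases it is known to bind, only AT4G11290 passed without the block (background of higher genes 4.20% in the triple mutant, 4.29% in Col-0). AT5G17820 passed with the block in both genotypes.

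Genes acting with the peroxidases were read from lists of the same pathways. Of 14 lignin monomer genes tested, 5 rose and 0 fell in each genotype, and they were PAL1, C4H, 4CL3, CCR1 and CAD4 in both. Of all genes 4.20% rose and 3.81% fell in the triple mutant, and 4.29% rose and 2.46% fell in Col-0. PAL1, which opens the phenylpropanoid pathway, had 183, 143 and 165 TPM in the triple mutant after bleomycin, against 82.9, 70.7 and 81.1 TPM in controls. This gave a log2 fold change of 0.97 ± 0.20 in the triple mutant (edgeR adjusted p = 0.014) and 1.00 ± 0.20 in Col-0 (edgeR adjusted p = 0.012). Without triple mutant bleomycin library 1 or control library 2, or without Col-0 control library 2 or 3, the call of that genotype was lost (edgeR adjusted p up to 0.0764). 4CL3, a coumarate CoA ligase linked more with flavonoids than with lignin, had 3.51, 5.43 and 9.75 TPM in the triple mutant after bleomycin, against 1.21, 1.08 and 1.83 TPM in controls. Its Col-0 call was lost without control library 2 (edgeR adjusted p = 0.06), and those of C4H, CCR1 and CAD4 were lost in each genotype without any of 4 to 9 single libraries (edgeR adjusted p up to 0.194).

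Of 8 NADPH oxidases tested, RBOHE and RBOHC rose in the triple mutant (background 4.20%) and RBOHE in Col-0 (background 4.29%). RBOHE had 16.5, 14 and 12.3 TPM in the triple mutant after bleomycin, against 7.67, 6.52 and 9.12 TPM in controls. In Col-0 the levels were 19.9, 12.7 and 16.1 TPM after bleomycin, against 9.18, 6.34 and 5.81 TPM in controls. The fitted change on the log2 scale was 0.81 ± 0.20 in the triple mutant (edgeR adjusted p = 0.028) and 1.14 ± 0.20 in Col-0 (edgeR adjusted p = 0.0062). The triple mutant call was lost without library 1 or 2 of either of its groups (edgeR adjusted p up to 0.114). RBOHC, the oxidase of root hair growth, had log2 fold changes of 0.44 ± 0.12 in the triple mutant (edgeR adjusted p = 0.046) and 0.41 ± 0.12 in Col-0 (edgeR adjusted p = 0.063), and 9 of the 12 single libraries left out ended its call (edgeR adjusted p up to 0.156). RBOHF, needed for the Casparian strip, and RBOHD, the main oxidase of the immune burst, did not pass.

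Of 16 laccases, the copper enzymes that also polymerise lignin, LAC8 and LAC9 rose in the triple mutant (background 4.20%). In Col-0 0 passed (background 4.29%). Fold changes were above 0 for 13 of 16 in the triple mutant and 12 of 16 in Col-0. At an edgeR unadjusted p under 0.05, 7 were higher in the triple mutant (background 13.1%) and 4 in Col-0 (background 13.4%). DESeq2 called 3 in each genotype, with 13.3% of all genes called in the triple mutant and 12.6% in Col-0. LAC8 had 130, 93.6 and 148 TPM in the triple mutant after bleomycin, against 57.0, 66.8 and 73.8 TPM in controls. Its log2 fold change was 0.81 ± 0.11 in the triple mutant (edgeR adjusted p = 0.0013) and 0.35 ± 0.11 in Col-0 (edgeR adjusted p = 0.072), and the interaction test did not pass. LAC9 was not called without bleomycin library 1 or 2 or any 1 control library of the triple mutant (edgeR adjusted p up to 0.0976). Ascorbate peroxidases and catalases remove hydrogen peroxide inside the cell, and 10 were tested. Of these, APX3 rose in Col-0 with a log2 fold change of 0.52 ± 0.12 (background 4.29%). TAPX fell in the triple mutant with -1.0 ± 0.22 (background 3.81%). APX3 was not called without Col-0 bleomycin library 1 or 3 or control library 2 or 3 (edgeR adjusted p up to 0.131), and TAPX not without triple mutant bleomycin library 2 (edgeR adjusted p = 0.0646). The median log2 fold change of that list was 0.08 in the triple mutant and -0.01 in Col-0.

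No peroxidase passed between the genotypes. In the triple mutant against Col-0 on control medium 0 of 53 members passed, where 0.0278% of all genes did (6, among them the mutated ones). After bleomycin 0 of 53 passed as well, again with 0.0278% of all genes, and in the interaction 0 members and 0 genes passed with edgeR. DESeq2 and limma voom also called 0 members in all 3 tests. At an unadjusted p under 0.05 there were 4 members on control medium, 0 after bleomycin and 1 in the interaction, where 4.80%, 1.05% and 1.75% of all genes were. The 4 were AT4G16270, AT1G71695, AT2G22420 and PRXCA, and the 1 was PRXCA. The median log2 fold change of the members was -0.03 on control medium and -0.06 after bleomycin, against -0.01 over all genes in both.

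The largest of these differences rested on few reads. PRXCA had 0, 1 and 0 reads in triple mutant controls, against 10, 16 and 29 reads in Col-0 controls, with an unadjusted p of 0.00091 and an edgeR adjusted p of 0.68. Summed with PRXCB, the log2 fold change was 0.36 ± 0.60. AT4G16270 had 41.9, 31.0 and 43.4 TPM in triple mutant controls, against 33.1, 26.2 and 27.4 TPM in Col-0 controls, a log2 fold change of 0.56 ± 0.18 (edgeR adjusted p = 0.96). For Prx37 the log2 fold change of the triple mutant against Col-0 was -0.13 ± 0.15 on control medium and -0.22 ± 0.15 after bleomycin. For AT5G06730 it was -0.34 ± 0.29 on control medium and 0.00 ± 0.29 after bleomycin. CPM of all triple mutant controls were above all Col-0 controls for AT4G16270 (background 4.68%) and below them for AT2G22420, PA2 and PRXCA (background 6.49%).

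The proteins of the 59 loci are 310 to 358 residues long in the RefSeq annotation and pairs of them share 28.0% to 100% of residues, with a median of 38.3% over 1711 pairs. Of the members, 18 lie in 8 clusters of neighbouring genes, and neighbours could differ in their calls. AT5G64100 rose in Col-0, with a log2 fold change of 1.15 ± 0.28, beside PRX71 and AT5G64110, which did not pass. Their fitted changes in Col-0 were larger with wider standard errors, 1.78 ± 0.65 for PRX71 and 2.15 ± 0.75 for AT5G64110. AT4G37530 rose beside AT4G37520. Outside the list, 14 further family loci were looked at, of which 5 were tested. Of these 5, 1 rose and 0 fell in each genotype (background of higher genes 4.20% in the triple mutant, 4.29% in Col-0). Their median log2 fold change was 0.33 in the triple mutant and 0.40 in Col-0, with 3 and 4 of the 5 above 0. AT2G43480 rose in both genotypes, with 29.2, 24.0 and 30.6 TPM in the triple mutant after bleomycin, against 16.8, 19.8 and 16.8 TPM in controls. This gave a log2 fold change of 0.55 ± 0.14 in the triple mutant (edgeR adjusted p = 0.027) and 0.62 ± 0.14 in Col-0 (edgeR adjusted p = 0.02). The call was lost without any 1 of the 6 triple mutant libraries in the triple mutant (edgeR adjusted p up to 0.107), and without bleomycin library 1 or 3 or control library 2 in Col-0 (edgeR adjusted p up to 0.086).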

How the data were processed

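Each library came as a Salmon table deposited by the authors, in which 88971 transcripts have, per the file headers, an estimated count, a TPM value and lengths. The submitters' processing notes name Salmon 0.9.1 and CASAVA, while no build, annotation or option is stated (not given in the sources used here). TPM, as deposited, corrects for length and gives every library the same total over its listed transcripts. Here transposable element transcripts were dropped, and estimated counts and TPM were summed per locus, the counts rounded to whole numbers.

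Tests used edgeR 4.0.16 in R 4.3.3 (TMM scaling, filterByExpr by group, quasi-likelihood F test), with a single fit over 12 libraries, Benjamini-Hochberg adjustment over 21561 genes at 0.05 and no fold threshold. The steps were tested on simulated data. DESeq2 1.42.0 and limma 3.58.1 (voom) were alternatives, beside RLE scaling, no filter, length-scaled TPM, summed near-identical loci (90% of protein residues or more), kept transposable elements, no ribosomal RNA locus, only the groups compared, a replicate block and each library left out. The p-values measure the spread between these replicates. Depth was 36.3 to 40.9 M reads, and 3 reads are 0.0734 to 0.0827 CPM. Reads of near-identical loci are divided by Salmon's estimate.

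The members and lists were chosen with earlier results of these data known. Loci named are every called member, the 4 highest and 4 lowest fold changes among members averaging at least 2 CPM, the 10 most abundant, the role subgroups and called pathway genes. The deviations of same-numbered libraries correlated at 0.472, 0.236 and 0.282 between the genotypes after bleomycin, over 0.1 in every pair. Those numbers were therefore taken to pair the samples. With and without the block 0 members passed there, and with it 0.0464% of all genes did. The fold changes, standard errors and unadjusted counts given for that comparison are from the fit without the block, which leaves this pairing out.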

Additional observations from a re-analysis of the deposited data

How the results depend on the processing

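No setting called a member lower after bleomycin, and none called a member between the genotypes or in the interaction. Members called higher ranged from 4 to 19 in the triple mutant and from 2 to 23 in Col-0 when 1 library was left out; these fits have a sample fewer, and beyond that the cause was not tested. DESeq2 called 20 in the triple mutant and 19 in Col-0, with 13.3% and 12.6% of all genes called, and the cause was not tested. Calls for members given by name were kept in 392 of 480 alternatives and lost in 88, of which 79 left out a library; 0 changed direction.

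With the replicate block 28 members passed in each genotype. The deviations of same-numbered libraries correlated at -0.026 to 0.472 over all pairs of groups, and those of other numbers at -0.302 to 0.139; outside the genotype comparison after bleomycin not every pair was over 0.1, so there the numbers were not taken to pair the libraries. Between bleomycin and control the same-numbered correlations were 0.026 to 0.175 in the triple mutant, where 6 of 6 libraries correlated best with their own number. In Col-0 they were 0.073 to 0.392, where 4 of 6 did. This is a hint of pairing from the data and not from the labels. If the numbers do pair the libraries, the bleomycin tests without the block leave that pairing out.

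The fitted log2 fold changes of these uncalled members changed sign, cause not tested. AT1G14550 in the triple mutant after bleomycin had 0.02 with limma voom and with the block, AT1G34510 between the genotypes after bleomycin -0.20 with limma voom and -0.03 with the block, and AT2G38380 in the interaction 0.08 with limma voom. With 1 library left out, the ranges for bleomycin in the triple mutant were -0.46 to 0.03 for AT5G40150, -0.35 to 0.21 for AT1G71695, -0.47 to 1.32 for AT1G05240, -0.04 to 0.42 for AT2G22420 and -0.25 to 0.41 for AT1G14550. For bleomycin in Col-0 they were -0.30 to 0.01 for AT2G34060, -0.40 to 0.06 for AT2G22420, -0.10 to 0.88 for PRX25, -0.03 to 0.25 for AT4G16270 and -0.54 to 0.25 for PRXCA. Between the genotypes on control medium they were -0.17 to 1.35 for PRXCB and -0.75 to 0.74 for AT4G33420. Between the genotypes after bleomycin they were -0.01 to 0.94 for AT1G34510, -0.67 to 0.18 for AT5G51890, -0.81 to 0.92 for AT2G38380 and -1.27 to 0.06 for AT5G14130. The interaction of AT2G38380 ranged from -1.69 to 0.76. PRXCA and PRX25 had few reads.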

Other observations

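The second transcript model of AT2G37130, the fifth most abundant peroxidase, took very different shares of that locus's TPM. The share of AT2G37130.2 was 2.6%, 36.3% and 2.9% in triple mutant libraries 1 to 3 after bleomycin, against 17%, 38.7% and 45.2% in triple mutant controls. In Col-0 it was 1.7%, 22.6% and 1.9% after bleomycin, against 3.7%, 27.4% and 40.9% in controls. The genotypes ran alike by library number, and library 2 was high in all 4 groups. These shares are Salmon estimates for models of 1438 and 1278 bases and were not tested.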
